A study of Mus musculus with 6 samples.

Results

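The S100 genes encode a family of small calcium-binding proteins, and 9 of them were taken here from the injured quadriceps of mice: S100a1, S100a4, S100a6, S100a8, S100a9, S100a10, S100a11, S100a13 and S100a16. They were chosen by gene symbol, but with earlier results of these data known, so the choice was not blind. All 9 have a row among the 14016 rows of the table of the series. The muscle came from 3 WT mice and 3 GATA-1 mutant mice, the ΔdblGATA strain, a germline deletion in the promoter of the transcription factor gene Gata1 that leaves mice without eosinophils. All 6 mice underwent volumetric muscle loss, in which part of the quadriceps is cut out, and were sampled at day 7. They received no implant: in the paper's control injury the gap was filled with sterile saline. The study describes its WT animals as young adult female C57BL/6 mice. RNA with a poly(A) tail was sequenced from whole muscle, so the values mix fibres with every infiltrating and resident cell.

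For each gene the table gives 1 level, the authors' mean log2 CPM (reads scaled to a fixed library total, normalized with trimmed means of M-values), which is averaged over the libraries of both genotypes. The table names no library, so that the mean covers the 6 samples of the series is taken from the labels. No value per mouse and no depth per library was analysed here, so no SD, interval or test can be attached to a level, and no pair of genes can be said to differ beyond the spread between mice. The genotypes are not compared: the remaining columns of the table hold the authors' own comparison and were not used. What follows therefore describes which S100 genes the injured muscle held, at what level, and beside which partners and cell markers.

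S100 proteins form dimers, and each chain carries a pair of helix-loop-helix calcium sites known as EF-hands. On binding calcium most of them open a surface that grips other proteins. Inside cells they attach to annexins, to the cytoskeleton and to calcium pumps and channels. Outside cells some act as danger signals, among them S100A8 and S100A9, which together make up calprotectin, an abundant cytosolic protein of neutrophils and of freshly recruited monocytes. In muscle the family is best known through S100A1 of the fibres, while S100A4 and S100A6 are associated with fibroblasts, macrophages and activated stromal cells, and S100A10 and S100A11 are found in many cell types with their annexin partners.

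The C-terminal calcium loop is the canonical EF-hand loop of an S100 protein, and its coding sequence is shown for every member because it separates S100a10, which is known as the member that does not need calcium, from the others. Each line gives the 36 bases for the 12 residues of the loop from the GENCODE M21 transcript with the longest complete coding sequence, on the coding strand from 5′ to 3′, with the codons of loop positions 1, 3, 5 and 12 in capitals. These are the positions whose side chains point at the calcium ion.
S100a1: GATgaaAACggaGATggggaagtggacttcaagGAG
S100a4: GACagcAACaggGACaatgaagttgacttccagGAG
S100a6: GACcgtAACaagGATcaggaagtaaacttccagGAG
S100a8: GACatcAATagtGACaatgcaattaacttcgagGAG
S100a9: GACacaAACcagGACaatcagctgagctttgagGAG
S100a10: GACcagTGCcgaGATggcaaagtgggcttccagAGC
S100a11: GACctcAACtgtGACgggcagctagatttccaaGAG
S100a13: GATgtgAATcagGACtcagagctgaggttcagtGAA
S100a16: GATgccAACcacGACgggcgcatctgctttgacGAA

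Of the 9 members, 8 encode the same 4 residues at the capitalised positions, whichever synonymous codon they use. S100a10 is the exception. Against S100a11, and counting from 1 at the first residue of the loop, its protein carries N3C and E12S. The canonical EF-hand pattern was found in 6 of the 9 translated proteins. It was not found in S100a9, S100a10 and S100a13, for which the stretch shown is the one that aligned to the loop of S100a11. A missing match says only that the residues of this pattern are not all there. The pattern also restricts the residue just after the loop. At all 12 loop positions S100a9 does meet the pattern.

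The translated proteins are short and only loosely alike. They run from 89 residues in S100a6 and S100a8 to 160 in S100a13, for which GENCODE M21 has 1 transcript. In that model the loop of S100a13 begins at residue 126, against 63 in S100a11. The length of 160 is that of the model and was not checked against another annotation. Over the 36 pairs of members, aligned globally, the median identity was 34.9%, with a range from 22.5% between S100a9 and S100a16 to 50.6% between S100a4 and S100a6. S100a1 was next closest to S100a10, at 48.4%, and to S100a4, at 47.9%. With local alignment the S100a4 and S100a6 pair stood at 51.2%, S100a1 and S100a10 at 50.6% and S100a1 and S100a4 at 50%, and the lowest pair was S100a8 and S100a13, at 24.1%. S100a8 and S100a9, whose products bind each other, shared 32.6% of aligned residues, below the median of all pairs.

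**Figure D1:**
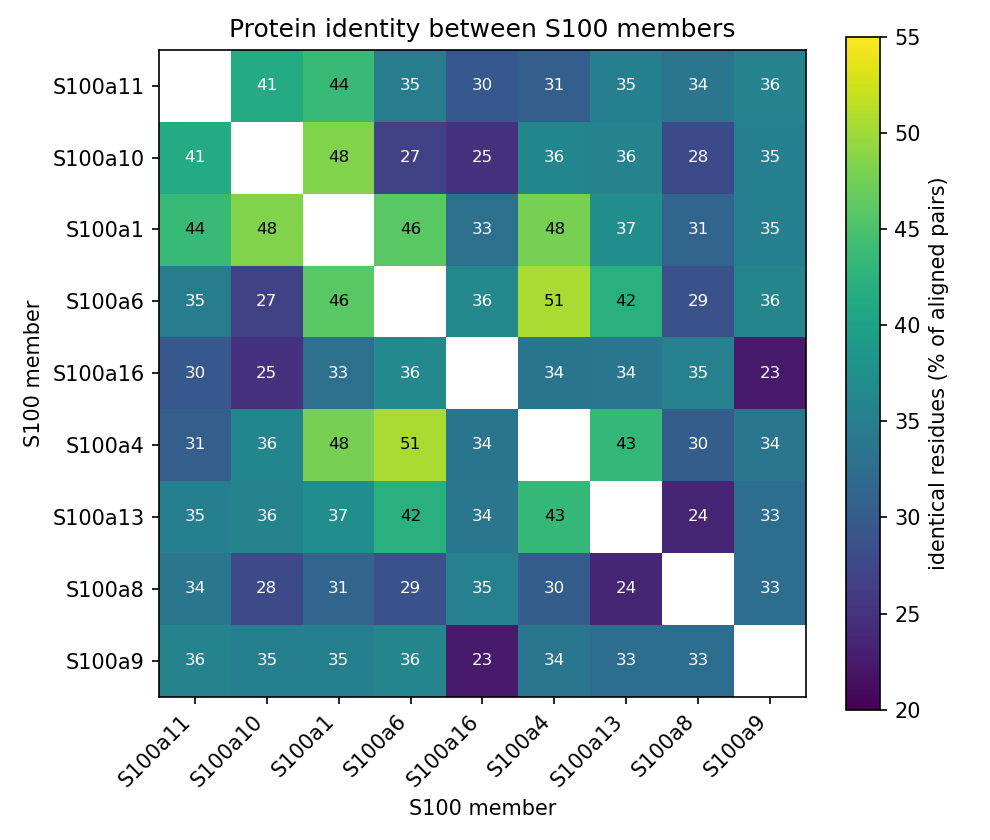
Identity of the translated S100 proteins in percent of residue pairs in global alignment, members on both axes in the order of their level per kilobase. The S100a4 and S100a6 pair is the highest at 50.6%, and the S100a9 and S100a16 pair is the lowest at 22.5%.

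All 9 members lie on mouse chromosome 3. In GENCODE M21, which annotates GRCm38, 7 of them fall in a block from S100a1 (90511034 to 90514392, minus strand) to S100a9 (90692632 to 90695721, minus strand). S100a13 (90514435 to 90524581), S100a16 (90537254 to 90543151), S100a4 (90603771 to 90606045), S100a6 (90612882 to 90624181) and S100a8 (90668978 to 90670035) lie between them on the plus strand. S100a11 (93520488 to 93526287) and S100a10 (93555080 to 93564643) sit 2824766 bases beyond S100a9, neighbours of each other on the plus strand. The submitters' processing notes name the later build GRCm39, and no coordinate was converted.

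The level of the family as a whole was moderate, and 5 of its members carried nearly all of it. Summed over the 9 genes, the authors' means correspond to 439.9 CPM, which is 0.0476% of the summed level of all rows. S100a10, S100a16, S100a1, S100a11 and S100a6 made up 88.7% of that sum. Their mean levels were 6.36 log2 CPM for S100a10, 6.32 for S100a16, 6.31 for both S100a1 and S100a11, and 6.11 for S100a6, so that the 5 genes spanned only 0.24 on the log2 scale. S100a4 at 4.68 and S100a13 at 4.47 log2 CPM formed a middle pair. S100a8 at 0.52 and S100a9 at -0.50 log2 CPM were far lower. Over all rows the median was 4.03 log2 CPM, and 7 of the 9 members were above it.

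S100 transcripts are short, with a median of 677 nt (486 to 1127 nt) against 3140 nt over the rows with a known length, and a short transcript yields fewer reads than a long one of the same abundance. Levels of different genes are therefore compared per kilobase of the longest coding transcript. On that scale S100a11 was the highest member, at 155 CPM per kilobase, followed by S100a10 at 120 and S100a1 at 117. S100a6 stood at 94.7, S100a16 at 71.0, S100a4 at 51.4 and S100a13 at 30.99 CPM per kilobase. S100a8 at 2.96 and S100a9 at 1.37 CPM per kilobase closed the order, and S100a11 exceeded S100a9 by 113-fold.

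The median of the members was 71.0 CPM per kilobase, against 4.84 over all rows with a length, and 6 of the 9 were in the highest 10% of those rows. S100a11 was higher per kilobase than 97.5% of the rows with a length and S100a4 higher than 92.7%. S100a13 was at 88.0%, S100a8 at 38.1% and S100a9 at 24.2%. By log2 CPM, without division by length, no member was in the highest 10% of rows. The highest there was S100a10, at 88.3%.

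**Figure D2:**
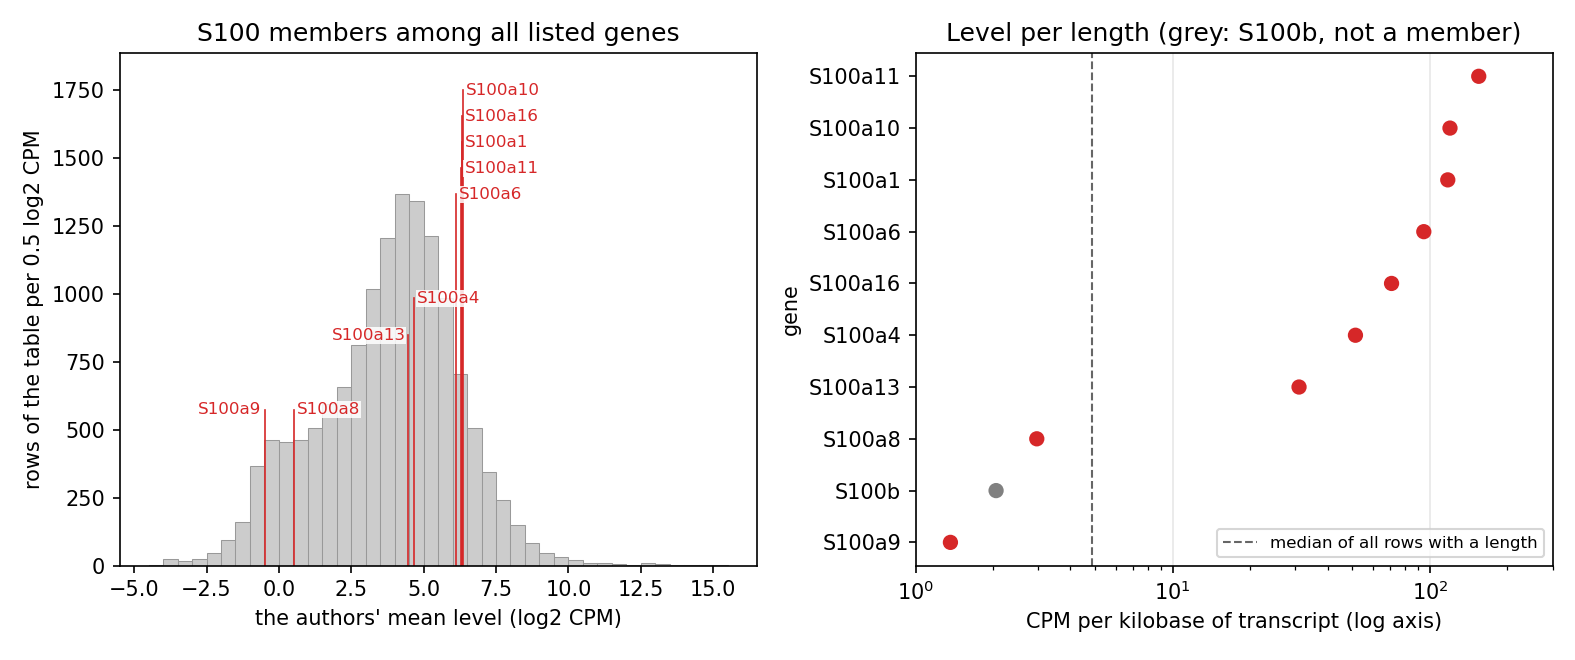
Left, the number of table rows per 0.5 log2 CPM of the authors' mean level (grey bars), with a red line at each S100 member. Right, each listed S100 gene by CPM per kilobase of transcript on a log axis, with the median of all rows with a length (4.84) as a dashed line. The 7 members from S100a11 to S100a13 lie above that median, and S100a8 and S100a9 below it.

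Some levels rest on sequence that other genes share, which bears on how reads were assigned. Of the 31-base words of the longest coding transcript of S100a11, 48.9% also occur in transcripts of 6 other genes, S100a11-ps and predicted Gm genes. For S100a4 the share was 58.1%, with the 1 gene Gm42674, which overlaps it on the same strand. None of these other genes has a row in the table. S100a10 shared 0.763% of its words with 1 gene, and S100a1, S100a6, S100a8, S100a9, S100a13 and S100a16 shared 0%. The values of S100a11 and S100a4 are thus uncertain in a way that those of the other members are not.

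S100a1 binds and tunes the calcium release channel and the calcium pump of the sarcoplasmic reticulum. It stood at 6.31 log2 CPM beside a muscle background in which all 12 fibre markers were listed, from 8.09 log2 CPM for the embryonic myosin Myh3 to 14.65 for the fast myosin Myh4. Per kilobase these markers had a median of 1771 CPM, with Acta1 (skeletal actin, 13986) and Tnnt3 (fast troponin T, 11659) the highest and Ttn (60.5) and Myh3 (45.1) the lowest. Ryr1, the release channel, was at 151 CPM per kilobase, against 117 for S100a1. That order turned with the length used: S100a1 over Ryr1 was 0.778 with the longest coding transcript, 0.839 with the median coding transcript and 1.09 with an effective length, which is that of the transcript less a mean fragment of 200 nt. Atp2a2, the slow pump, was at 73.0, and Atp2a1, the fast pump, at 6059, which is 51.6 times the level of S100a1. S100a1 over Atp2a1 was 0.0194 with the longest coding transcript, 0.0125 with the median one and 0.0259 with the effective length, so Atp2a1 was far higher under each.

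S100a13, which helps to release FGF1 and interleukin-1α from cells without a signal peptide, begins next to S100a1 and is read in the opposite direction. The window around the paired start sites is shown because the genes run outward from it at unequal levels. It is the RefSeq promoter window of S100a13 on the plus strand of GRCm38.p6, chr3:90514185-90514484, with the stretch from the start of S100a1 (90514330) to that of S100a13 (90514435) in capitals.
S100a13 and S100a1: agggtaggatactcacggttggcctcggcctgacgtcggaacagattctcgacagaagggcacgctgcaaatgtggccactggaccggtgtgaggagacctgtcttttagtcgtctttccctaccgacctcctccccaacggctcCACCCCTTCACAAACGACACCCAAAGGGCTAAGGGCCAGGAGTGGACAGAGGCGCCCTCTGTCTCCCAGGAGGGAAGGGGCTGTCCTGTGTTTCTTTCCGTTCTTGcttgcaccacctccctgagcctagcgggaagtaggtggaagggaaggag

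Between these RefSeq starts lie 104 bases. The GENCODE M21 span of S100a1 given above reaches further, to 90514392, which leaves 42 bases before S100a13. The capitalised stretch is 59.4% G and C. Searched on both strands, the window holds 0 copies of TATAA, of CCAAT and of GGGCGG, which occur in 24.9%, 37.4% and 35.7% of the 32851 RefSeq promoter windows of the same length. Across these paired starts the level of S100a1 was 3.79 times that of S100a13 in CPM per kilobase. Of the cargo of S100a13, Fgf1 was listed at 3.90 CPM per kilobase and Il1a at 0.434.

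S100a10 and S100a11 act with annexins, proteins that bind membranes in the presence of calcium. S100a10 pairs with annexin A2 in a tetramer, and the levels of the partners lay close together, at 120 CPM per kilobase for S100a10 and 130 for Anxa2. The order of this pair depended on the length used: S100a10 over Anxa2 was 0.921 with the longest coding transcript, 1.12 with an effective length and 0.564 with the median coding transcript. S100a11 pairs with annexin A1, and at 155 against 63.1 CPM per kilobase it was the higher, by 2.46-fold. All 7 annexins searched for were listed, with a median of 77.0 CPM per kilobase, from Anxa2 and Anxa6 (126) down to Anxa4 (24.2) and Anxa7 (19.8). Ahnak, a giant scaffold protein held at the membrane by S100A10 and annexin A2, was at 28.8 CPM per kilobase.

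S100a4 and S100a6, the most alike pair of proteins, stood at 51.4 and 94.7 CPM per kilobase. The gene between them on the chromosome, S100a5, is not listed. Myh9, the non-muscle myosin whose filaments S100A4 takes apart, was at 24.2 CPM per kilobase. S100a4 was 2.12 times Myh9 with the longest coding transcript and 3.44 times with the effective length but 0.216 times with the median coding transcript, so the direction of that pair is not settled by these levels. Cacybp, which encodes a ubiquitin ligase adaptor also known as S100A6-binding protein, was at 30.6, and S100a6 exceeded it 3.09-fold.

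The fibroblast and macrophage markers that share cell types with S100a4 and S100a6 were listed in full. The 10 fibroblast markers had a median of 284 CPM per kilobase, with Sparc (861) and Col3a1 (619) the highest and Pdgfrb (12.1) and Pdgfra (7.75) the lowest. The 12 macrophage markers had a median of 12.5, with the lysozyme gene Lyz2 (423) and the complement gene C1qa (112) the highest and Fcgr1 (3.42) and Mertk (3.21) the lowest. Adgre1, which encodes F4/80, appears under its older symbol Emr1 at 8.08 CPM per kilobase. In whole muscle a change in the number of cells of a type and a change in their RNA cannot be told apart, and how much of any S100 level each cell type supplied was not tested.

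**Figure D3:**
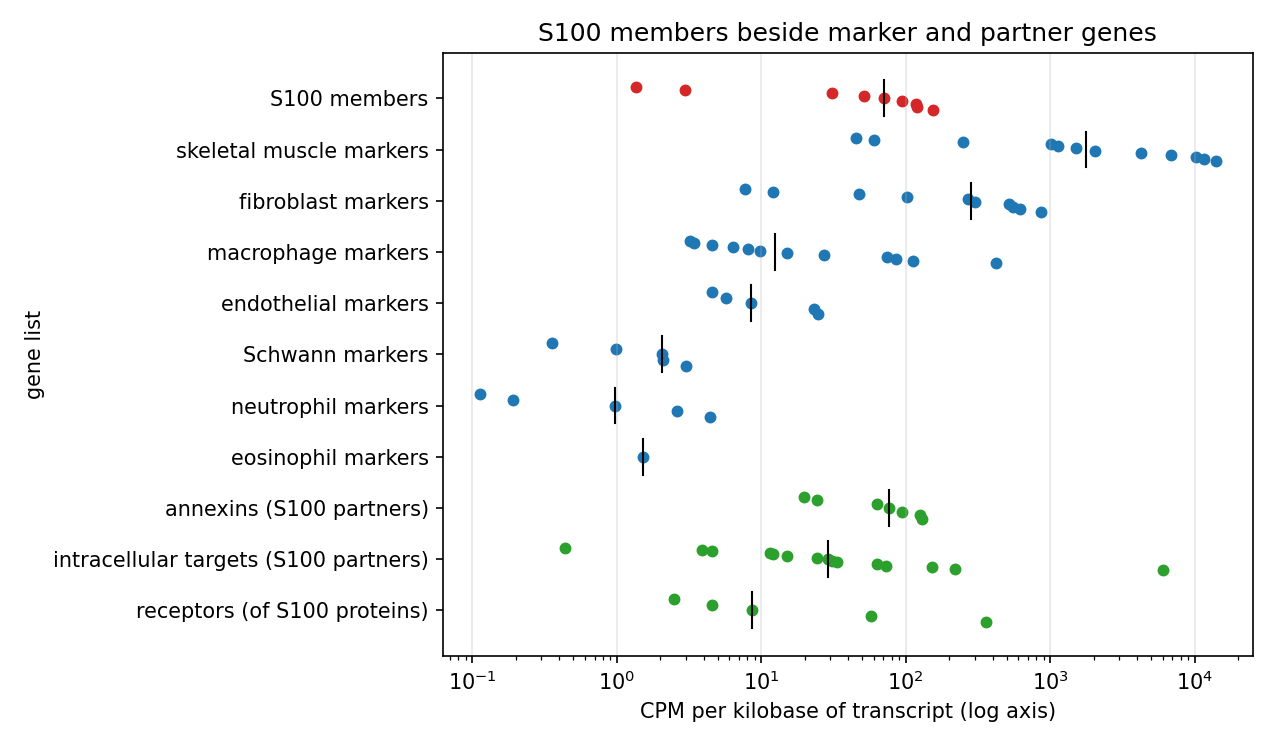
CPM per kilobase of transcript on a log axis for the 9 S100 members (red), the listed markers of 7 cell types (blue) and 3 groups of S100 partners (green), with 1 point per gene and a black bar at each median. The members' median of 71.0 lies between the macrophage median of 12.5 and the fibroblast median of 284, and S100a8 and S100a9 are the low pair on the left of the red row.

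S100a8 and S100a9, the calprotectin genes, were the lowest members on every scale. S100a8 was at 0.52 log2 CPM, with 1677 rows below it, and S100a9 at -0.50 log2 CPM, with 744 rows below it. Per kilobase S100a8 was 2.17 times S100a9. Of 12 neutrophil markers searched for, 5 were listed, with a median of 0.970 CPM per kilobase, and Ly6g, Cxcr2, Mpo, Elane, Camp, Retnlg and Mmp8 were not. Those listed were Mmp9 at 4.42 and Lcn2 at 2.61 CPM per kilobase, both also made by other cells, then Csf3r at 0.970 CPM per kilobase, Ltf at 0.189 and Ngp at 0.113. By flow cytometry the paper did find neutrophils entering control injuries, a smaller but significant influx that peaked at day 7. Unlisted markers therefore do not mean that neutrophils were absent. Tlr4, the receptor through which extracellular S100A8 and S100A9 signal, was at 2.47 CPM per kilobase, between S100a8 and S100a9. S100a8 over Tlr4 was 1.20 with the longest coding transcript, 1.93 with the effective length and 0.874 with the median coding transcript, so their order is not settled either. Ager, which encodes RAGE, the other receptor proposed for several S100 proteins, is not listed.

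Whether the level of S100a9 bears on its evenness over the libraries cannot be settled here. The authors kept a gene only where at least 3 samples exceeded 1 CPM, which is 0 on the log2 scale. Suppose that at least 3 of 6 samples were also above 0 in the values that were averaged. A mean of -0.50 would then leave the other 3 with a mean of at most -0.99 log2 CPM. In that case S100a9 was not at one level in all of them. The filter was set before the normalization, and the 6 samples are taken from the labels, so the bound is not certain. The lowest row of all stood at -4.08 log2 CPM, and Ngp at -2.86. Means that low are hard to reach with 3 samples above 0, so the supposition may not hold for this table. No unevenness of S100a9 is therefore read from it. The bound also does not say which libraries would be low. Of all rows, 1198 (8.55%) had such a mean below 0. S100a8, at 0.52 log2 CPM, gives no such bound.

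**Figure D4:**
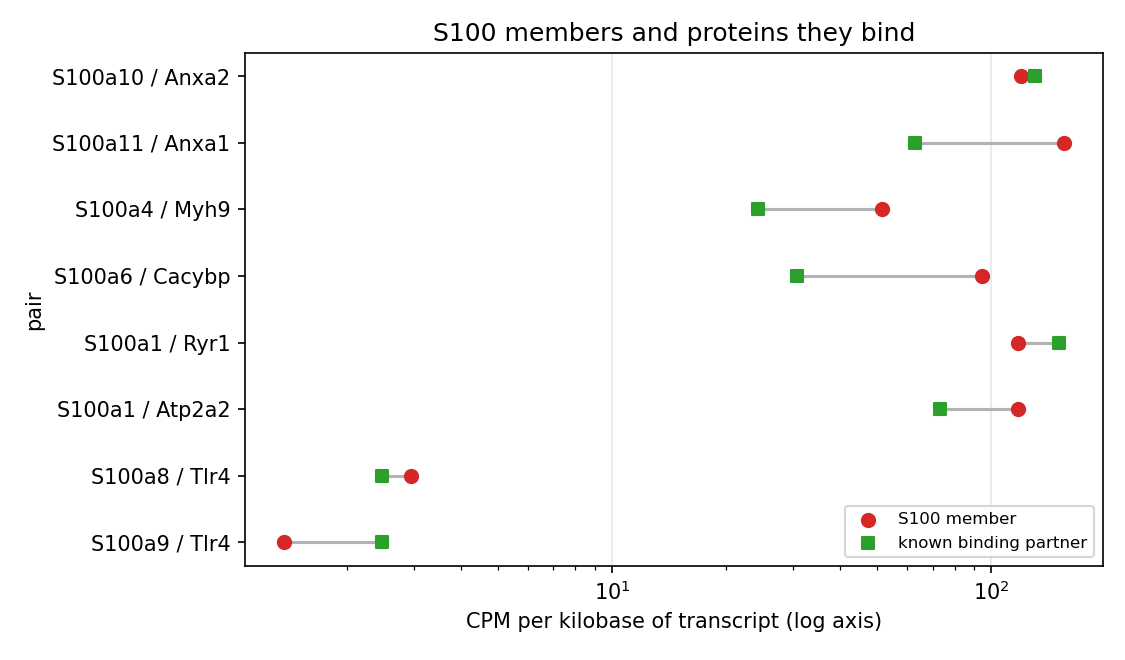
CPM per kilobase of transcript on a log axis for S100 members (red circles) and proteins they are known to bind (green squares), 1 pair per line. S100a10 and Anxa2 lie side by side at 120 and 130, S100a11, S100a6, S100a4 and S100a1 lie to the right of Anxa1, Cacybp, Myh9 and Atp2a2, and the order within the pairs S100a10 and Anxa2, S100a4 and Myh9, S100a1 and Ryr1, and S100a8 and Tlr4 turns with the transcript length used.

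GENCODE M21 annotates 17 mouse S100 genes, of which 10 have a row, the 9 members and S100b. The 7 without a row are S100a2, S100a3, S100a5, S100a7a, S100a14, S100g and S100z. S100a14 and S100a7a are known mainly from epithelia, S100a3 from hair follicles and S100g from intestine. The unlisted S100a14 lies between the listed S100a13 and S100a16, and the listed S100a4 lies between S100a5 and S100a3, whose annotated span holds S100a2.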

How the data were processed

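Quadriceps RNA of 3 WT and 3 GATA-1 mutant mice was sequenced. The authors pseudoaligned paired-end reads with kallisto, assigned transcripts to genes and derived CPM in edgeR. A gene stayed in where 3 or more samples passed 1 CPM. Logs and TMM scaling came next, then limma. The submitters' processing notes name GRCm39 and mm39, and the kallisto index is not given in the sources used here. The only deposited values used are the authors' mean log2 CPM per gene. The table's 5 other value columns hold the authors' own genotype comparison (log2 fold change, moderated t, p-value, adjusted p-value and log-odds) and were neither used nor printed. The planned limma test of the genotypes needs values per mouse and was not run. Depth per sample is unknown.

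CPM is 2 raised to the mean log2 CPM. Symbols were matched to GENCODE M21 (13436 directly, 487 through another symbol, 99.3% of rows), and CPM was divided by the length of the longest coding transcript. Percentiles count the rows at or below a gene. Members and lists were chosen with earlier results of these data known. Named are all members, every other S100 gene, the 2 highest and 2 lowest genes of each list (per kilobase, and Myh4 by log2 CPM), and direct binding partners. Some genes that the rule names are not reported here. Adgre1, Csf3r, Gm42674 and the unlisted markers were named after their values were seen. Annotated coding sequences were translated and aligned globally with BLOSUM62 (Biopython 1.88), as no RefSeq protein table was used. Promoter windows are RefSeq's. The calculations were tested on simulated data.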

Additional observations from a re-analysis of the deposited data

How the results depend on the processing

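No paired analysis was possible because the table holds 1 mean per gene and nothing per animal. The limma fits, the fit with a replicate block, leaving out each mouse and the filter on low values in that fit were not run. With no spread known, any change in a printed value counts as a move. The members' median percentile was 85.6 for log2 CPM among all rows. It was 94.7 per kilobase of the longest coding transcript, 93.3 with the median coding transcript and 95.0 with an effective length for 200-nt fragments, the last pair of settings chosen after seeing the data. Among protein-coding rows it was 85.4, and among rows of at least 1 log2 CPM 85.7, over the 7 members left. The members' order was identical under the 3 lengths, and S100a8 and S100a9 were also last in CPM. Their share of the summed level was 0.0476%, against 0.0479% with S100b added, 0.0542% without the 13 mitochondrially encoded genes and, chosen after seeing the data, 0.132% per kilobase. Local alignment gave a median protein identity of 34.7% against 34.9%. What limits all levels is the missing depth and spread.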

Other observations

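S100b, known from Schwann cells and astrocytes, is the only other S100 gene with a row. At 1.61 log2 CPM it was above S100a8 and S100a9, and at 2.06 CPM per kilobase it lay between them. Of the other Schwann cell markers, Sox10 was at 0.353 and Mbp at 3.03 CPM per kilobase. The 5 endothelial markers were all listed, with a median of 8.42 CPM per kilobase, Pecam1 (24.7) and Cdh5 (23.1) being the highest and Tek (5.69) and Emcn (4.57) the lowest. Of 9 eosinophil markers only Ear2 was listed, at 1.52 CPM per kilobase, while Epx, Prg2, Siglecf, Ccr3, Il5ra, Ear1, Ear6 and Alox15 were not.

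Among the listed genes for proposed S100 receptors, the highest levels were those of Bsg, which encodes the S100A9 receptor basigin (357 CPM per kilobase), and Cd36 (57.0), and the lowest of the listed receptors were Itgam (4.52) and Tlr4 (2.47). Cd69, like Ager, is not listed. All 15 intracellular targets were listed, with a median of 28.8 CPM per kilobase. Capzb, which encodes a subunit of the actin-capping protein, was second at 220, after Atp2a1.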
